A study of Mus musculus with 26 samples.

Results

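The comparison set islet macrophages of adult (12-week) C57BL/6J mice against those of juvenile (4-week) C57BL/6J mice, a strain (B6) that does not develop autoimmune diabetes. It uses 8 of the 26 libraries of the study, 4 at 12 weeks and 4 at 4 weeks, chosen by the strain and age in their labels, and it covers all 19703 genes that passed the filter on low counts. The other libraries, from B6 at 2 weeks (3 libraries) and from diabetes-prone NOD mice at 2, 4, 8 and 12 weeks (15 libraries), served to estimate the spread and for a comparison of the strains. All mice were female, with no treatment and no engineered allele given in the labels. Each library came from islet cells pooled from 6 to 14 mice and sorted as live CD45+ F4/80+ CD11c+ cells negative for B220 and CD90, after which the RNA was amplified. The labels do not say whether libraries of a group came from separate sorts, so the p-values measure the spread between these libraries.

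Islet macrophages are resident phagocytes that lie against beta cells and capillaries within each islet. They depend on signalling through the colony-stimulating factor 1 receptor, carry high levels of MHC class II molecules with peptides taken up from beta cells, and produce cytokines at rest. B6 mice give the course with age in islets without autoimmune disease.

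The 8 libraries differed by age in more than single genes. At 4 weeks they held 9753000 to 11350000 counts and at 12 weeks 4957000 to 8076000. In spite of the greater depth, 14150 to 17840 genes had a count at 4 weeks against 19530 to 23460 at 12 weeks, and after every library was thinned to the smallest total the ranges were 12880 to 16140 and 18730 to 22570. The exact two-sided permutation p of each of these differences was 0.0286, the smallest that 4 against 4 libraries allow, and 0.05 after adjustment over 7 library measures. The other 18 libraries had 18970 to 26490 genes with a count, so the 4 libraries of B6 at 4 weeks were the lowest of all 26. The mean GC content of the counted transcripts was 49.44 to 50.07% at 4 weeks and 47.15 to 48.70% at 12 weeks (exact permutation p = 0.0286, adjusted 0.05). Gm42418, a locus that overlaps ribosomal RNA sequence, took 15.0% ± 1.8 (SD, n = 4) of the counts at 4 weeks and 10.6% ± 1.3 at 12 weeks (exact permutation p = 0.0571). The part of these library differences in the results below was not tested, and they cannot be told apart from age. In such bulk samples, fewer cells of a type and less RNA per cell cannot be told apart either.

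**Figure D1:**
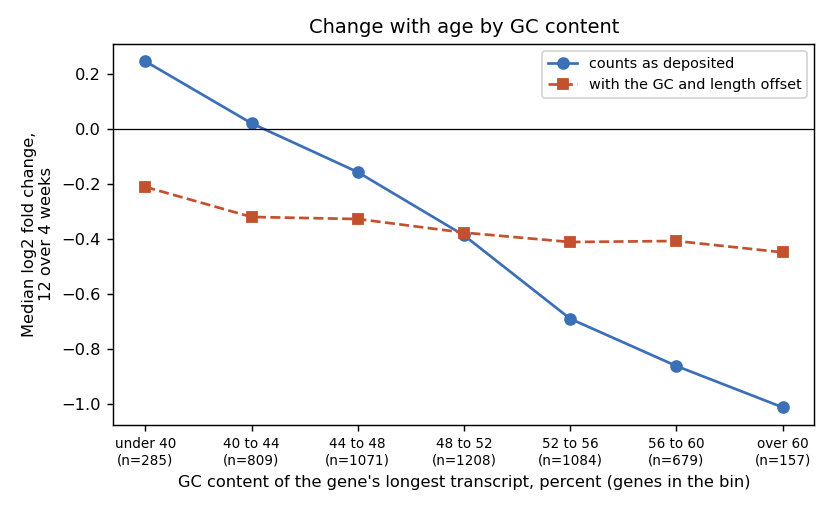
Median log2 fold change (12 over 4 weeks) of genes at 20 CPM or more, by GC content of the gene's longest transcript; circles show the counts as deposited and squares the same fit with an offset for GC content and length. The median ran from 0.25 in genes under 40% GC to -1.01 in genes over 60% GC, and from -0.21 to -0.45 with the offset.

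Under the scaling used for the main fits, well-expressed genes that changed were mostly lower at 12 weeks. In the fit to all 26 libraries (edgeR's quasi-likelihood test with Benjamini-Hochberg adjustment, threshold 0.05), 2043 of 19703 genes were higher at 12 weeks (10.4%) and 1677 were lower (8.51%). Fitted alone, the 8 libraries gave 71 higher genes among 12353 tested (0.575%) and 321 lower ones (2.6%). Libraries of a group were less alike in B6 at these ages than in NOD. Their mean Spearman correlation was 0.746 at 4 weeks and 0.803 at 12 weeks, against 0.853 to 0.882 in the NOD groups. The p-values of the fit of 26 libraries therefore do not measure the spread of the 8 libraries by themselves. Of the genes tested in the 8 libraries alone, 70 were called higher in both fits (0.567%) and 320 lower in both (2.59%), and a gene is said below to have risen or fallen when both fits called it. Among the 2864 genes with a mean level of at least 50 CPM (counts per 1000000 of the TMM-scaled library), 296 fell (10.3%) and 30 rose (1.05%). The values of the 2 groups did not overlap for 381 of the 390 genes called in both fits, against 11.7% of all genes tested. The 390 genes were called from these same values, so this count describes the calls and tests nothing.

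Scaling and GC content set how many of these calls remained. When the libraries were scaled on abundant genes only, the median log2 fold change of all genes moved up by 0.32, and the genes called in both fits were 77 higher and 102 lower. Both fits were run with the main scaling, with the abundant-gene scaling, and with each of these plus an offset for GC content and length, which makes 8 fits. In each of the 8, the same 44 genes were called with the same sign, 16 of them higher (0.13% of 12338 genes) and 28 lower (0.227%). These 44 genes are marked in the plot of change against level, and a named gene not said below to be among them lost its call in at least 1 of the 8. In the fit of 26 libraries, upper-quartile scaling gave 2764 higher and 976 lower genes, where the main scaling gave 2043 and 1677, and in both fits it gave 84 of each. Lower genes were 24.7% of the calls of the 26 libraries with the abundant-gene scaling, 22.5% with that scaling and the offset, and 92% with limma-voom and sample weights. Fold changes below are on the main scaling unless another is named. For each gene list, the counts of the fit of 26 libraries are given on the main scaling and then on the abundant-gene scaling, without and with the offset. Main-scaling counts are to be read against the shares over all genes on that scaling (8.51% lower and 10.4% higher in that fit, 2.59% lower in both). For genes of at least 50 CPM, 10.3% fell in both fits and the median log2 fold change was -0.39. Their share of lower calls in the fit of 26 libraries alone is not given here. Over all genes, the abundant-gene scaling gave 2871 higher and 943 lower calls in that fit, and 2407 and 697 with the offset. Counts on that scaling are to be read against these.

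**Figure D2:**
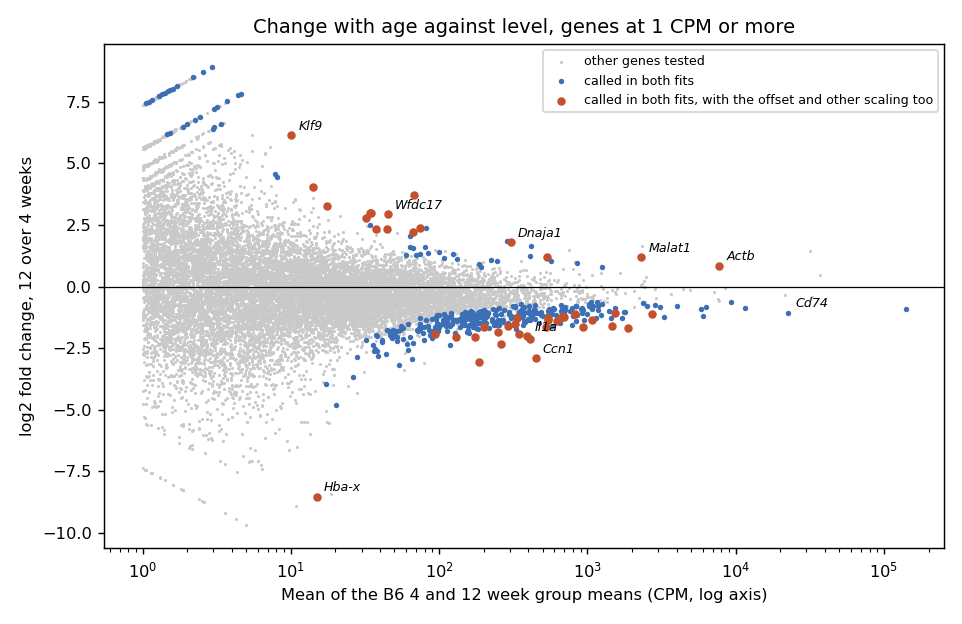
Log2 fold change (12 over 4 weeks, fit of 26 libraries) against the mean of the 2 group means in CPM (log axis) for genes at 1 CPM or more. Small grey points are genes not called in both fits, blue points the genes called in both, and large orange points the 44 genes called in all 8 fits; Klf9, Dnaja1, Malat1 and Actb lie above 0, Ccn1, Il1a and Hba-x below it, and Cd74 among the most abundant genes that fell.

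Genes of antigen presentation by MHC class II, in which invariant chain guides class II dimers to the endosome and proteases and H2-DM load them with peptide, were lower in part on the main scaling. Of 16 genes tested, 6 were lower and 1 higher in the fit of 26 libraries and 4 fell in both fits, with a median log2 fold change of -0.60 beside 0.06 over all genes tested and -0.39 over genes of at least 50 CPM. On the abundant-gene scaling 4 were lower and 1 higher; with the offset 4 were lower and 2 higher, none fell in both fits and 1 rose, and the median was -0.16. Cd74, the invariant chain, stood at 24880, 28910, 41160 and 27190 CPM in the 4 libraries at 4 weeks and at 13440, 16490, 15400 and 13580 CPM at 12 weeks. Every 12-week library was below every 4-week library, and Cd74 fell by 1.05 on the log2 scale (SE 0.14, edgeR adjusted p = 3.59e-06, and 0.00106 in the 8 libraries alone). With the offset and abundant-gene scaling the estimate for Cd74 was -0.34 (edgeR adjusted p = 0.0409). The asparagine endopeptidase gene Lgmn fell from 2364 ± 64 to 1172 ± 174 CPM (SD, n = 4 each; log2 fold change -1.01) and the peptide loading chaperone gene H2-DMa from 699 ± 249 to 307 ± 26 CPM (log2 fold change -1.19). The class II chains did not move as one. H2-Ab1 was at 11270 ± 2131 and 7390 ± 871 CPM (log2 fold change -0.61, edgeR adjusted p = 0.00916), but its estimate was -0.25 with the GC and length offset and 0.08, a change of sign, with the abundant-gene scaling added. H2-Aa was at 8580 ± 1941 and 8355 ± 1007 CPM (log2 fold change -0.04, edgeR adjusted p = 0.891), and H2-Eb1 at 9365 ± 2119 and 6186 ± 815 CPM (edgeR adjusted p = 0.0149, and 0.0504 in the 8 libraries alone). Ctss, the cathepsin that trims the invariant chain, was at 1331 ± 286 and 1974 ± 253 CPM (log2 fold change 0.57, edgeR adjusted p = 0.0212; 0.0507 in the 8 libraries alone).

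MHC class I presentation also gave mixed values. Of 14 genes tested, 6 were lower and 1 was higher in the fit of 26 libraries, 2 fell in both fits, and the median log2 fold change was -0.57. Scaled on abundant genes, 3 were lower and 1 higher, with none in both fits, and with the offset 2 were lower and 3 higher, 1 fell in both fits, and the median was -0.10. B2m, the light chain shared by all class I molecules, was at 7043, 6719, 9378 and 7360 CPM at 4 weeks and at 4329, 3551, 4022 and 4521 CPM at 12 weeks. The 2 groups did not overlap and B2m fell by 0.89 (SE 0.16, edgeR adjusted p = 0.000181), and by 1.51 with the GC and length offset. The heavy chain gene H2-D1 fell from 1006 ± 106 to 560 ± 78 CPM (log2 fold change -0.85, edgeR adjusted p = 9.23e-05). With the offset and abundant-gene scaling it stood at -0.16 (edgeR adjusted p = 0.376). The other heavy chain, H2-K1, was at 589 ± 93 and 532 ± 49 CPM (log2 fold change -0.14, edgeR adjusted p = 0.526). Its estimate was 0.47 with the offset and abundant-gene scaling, which turns its sign. The class I heavy chains are close paralogs whose reads the counting may have split. The promoters of B2m and H2-D1 are shown because both genes fell and both hold the interferon regulatory factor core AANNGAAA, searched on both strands. It was found in the RefSeq promoter window (GRCm38.p6, 250 bases before to 50 after the start) of 6 of 12 class I genes that have one (50%) and of 26.7% of all 27025 genes. The windows are chr2:122147437-122147736 (plus strand) for B2m and chr17:35262844-35263143 (plus strand) for H2-D1, with the match in capitals.
B2m: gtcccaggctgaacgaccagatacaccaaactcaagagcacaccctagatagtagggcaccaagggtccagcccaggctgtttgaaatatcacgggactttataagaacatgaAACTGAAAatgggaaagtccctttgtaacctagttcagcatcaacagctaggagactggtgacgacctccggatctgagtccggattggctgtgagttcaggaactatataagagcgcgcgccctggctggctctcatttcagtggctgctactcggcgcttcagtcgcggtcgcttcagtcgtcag
H2-D1: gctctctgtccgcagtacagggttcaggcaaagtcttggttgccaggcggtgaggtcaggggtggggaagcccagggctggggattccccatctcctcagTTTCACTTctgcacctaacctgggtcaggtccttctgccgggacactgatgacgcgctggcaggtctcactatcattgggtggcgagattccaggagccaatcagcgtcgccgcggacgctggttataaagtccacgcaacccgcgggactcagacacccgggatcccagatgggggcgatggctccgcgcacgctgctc

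The type I interferon-stimulated genes, which respond through that core, had 6 lower and 1 higher of 30 tested in the fit of 26 libraries, with a median log2 fold change of -0.58. With the abundant-gene scaling the balance turned, to 1 lower and 4 higher, and to none lower and 3 higher with the offset. All genes also had more higher than lower calls there (2871 and 943, and 2407 and 697 with the offset). None was called in both fits by edgeR, and 7 of the 30 had an unadjusted p under 0.05 in the 8 libraries alone. Of 25 genes of the interferon-gamma response, 4 were lower and 2 higher in that fit and 2 fell in both, while on the abundant-gene scaling 2 were lower and 2 higher, and 3 and 2 with the offset. Ifngr2, the signalling chain of the interferon-gamma receptor, was at 304, 425, 298 and 179 CPM at 4 weeks and at 73.6, 93.1, 101 and 123 CPM at 12 weeks. It fell by 1.63 (SE 0.23, edgeR adjusted p = 8.08e-06) and is among the 44 genes called in all 8 fits. Fcgr1, the high-affinity IgG receptor, fell from 255 ± 38 to 128 ± 30 CPM (edgeR adjusted p = 5.74e-05).

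**Figure D3:**
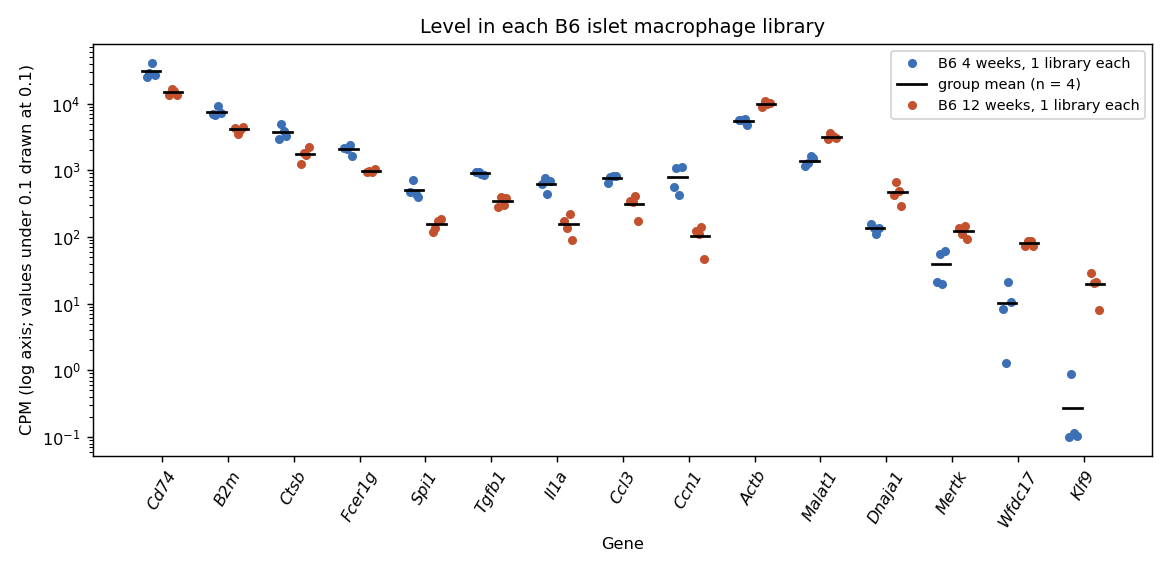
Level of 15 genes in each B6 library, in CPM on a log axis; blue points are the 4 libraries at 4 weeks, orange points the 4 at 12 weeks and black bars the group means. Every 12-week library is below every 4-week library from Cd74 to Ccn1 and above it from Actb to Klf9.

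Macrophage identity genes fell in part while those of the sorting gate did not pass the test in both fits. Of 24 core macrophage genes tested, 10 were lower and 2 higher in the fit of 26 libraries, and 7 fell and 1 rose in both fits. On the abundant-gene scaling 7 were lower and 4 higher, and 4 and 2 with the offset, with 3 and then 1 of them lower in both fits. Spi1, which encodes PU.1, the transcription factor that directs macrophage development, was at 468, 709, 449 and 401 CPM at 4 weeks and at 118, 135, 176 and 188 CPM at 12 weeks. It fell by 1.72 (SE 0.17, edgeR adjusted p = 2.23e-08), a change to 0.304 of its mean level at 4 weeks. Csf1r, the growth factor receptor of the lineage, was at 3148, 2855, 3100 and 3749 CPM at 4 weeks and at 1606, 2023, 1719 and 2061 CPM at 12 weeks. It fell by 0.79 (SE 0.11, edgeR adjusted p = 7.24e-06), by 0.49 with the GC and length offset, and stood at -0.18 (edgeR adjusted p = 0.185) with the abundant-gene scaling added. The endosomal glycoprotein gene Cd68 fell from 1352 ± 246 to 627 ± 108 CPM, the lysosomal membrane gene Laptm5 from 5072 ± 892 to 2972 ± 397 CPM and Sirpa, the receptor for CD47, from 1351 ± 178 to 755 ± 164 CPM. With the offset and abundant-gene scaling the log2 fold change of Laptm5 was -0.07 (edgeR adjusted p = 0.586) and that of Sirpa -0.25 (0.116), while that of Cd68 was -0.67 (0.000407). None of the 3 genes of the sorting gate was called in both fits: the log2 fold change of Ptprc (CD45) was 0.01 (edgeR adjusted p = 0.957; it was 0.33, adjusted p = 0.0393, on the abundant-gene scaling and -0.41, 0.0352, with the GC and length offset, so the 2 settings called it in opposite directions), that of Adgre1 (F4/80) -0.34 (0.160) and that of Itgax (CD11c) -0.51 (0.0152, and 0.179 in the 8 libraries alone). Mertk, a receptor for the uptake of dying cells, rose from 21.2, 55.1, 19.4 and 62.3 CPM to 138, 110, 147 and 93.6 CPM (log2 fold change 1.63, SE 0.31, edgeR adjusted p = 0.000585).

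Fc receptors and the signalling chains they use were lower in part. Of 26 genes tested, 9 were lower in the fit of 26 libraries and 5 fell in both, with a median log2 fold change of -0.53. No gene of the list was called higher by edgeR on the main scaling, and 2 had a higher level with an unadjusted p under 0.05 in the fit of 26 libraries. Scaled on abundant genes, 7 were lower and 2 higher, and with the offset 5 were lower, with 1 lower in both fits either way. Fcer1g, the common signalling chain of activating Fc receptors, was at 2197, 2059, 2364 and 1648 CPM at 4 weeks and at 933, 987, 956 and 1054 CPM at 12 weeks. It fell by 1.07 (SE 0.13, edgeR adjusted p = 1.64e-06) and was called in all 8 fits. The low-affinity IgG receptor gene Fcgr3 fell from 661 ± 73 to 320 ± 29 CPM and Inpp5d, the inhibitory phosphatase SHIP1, from 1295 ± 135 to 759 ± 51 CPM. With the offset and abundant-gene scaling the log2 fold change of Fcgr3 was -0.79 (edgeR adjusted p = 0.000226) and that of Inpp5d -0.19 (0.163). In the complement list, 5 of 16 genes tested were lower in the fit of 26 libraries and 2 fell in both, a share near the 10.3% of genes of at least 50 CPM. With the abundant-gene scaling 3 were lower and 2 higher, and 4 and 3 with the offset. C1qc, a chain of the recognition molecule C1q, was at 2632, 2234, 2639 and 2239 CPM at 4 weeks and at 820, 1003, 963 and 1209 CPM at 12 weeks, and fell by 1.29 (SE 0.11, edgeR adjusted p = 2.90e-09). C1qa, another chain of the same molecule, was at 977 ± 130 and 979 ± 189 CPM (log2 fold change 0.00, edgeR adjusted p = 0.994). Its estimate was 0.38 with the GC and length offset. With the abundant-gene scaling added it was 0.71 and called higher in the fit of 26 libraries (edgeR adjusted p = 0.000316).

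Lysosomal genes gave the highest share of lower calls among the lists in the fit of 26 libraries on the main scaling, though not in both fits, where the core macrophage list had 7 of 24. Of 34 genes tested, 18 were lower and 1 higher in the fit of 26 libraries, 9 fell in both fits, and the median log2 fold change was -0.49. With the GC and length offset 19 were lower. On the abundant-gene scaling 11 were lower and 3 higher, and with the offset added 9 were lower and 1 higher, 1 fell in both fits, and the median was -0.25. The protease gene Ctsb (chromosome 14, 63122462 to 63145923 in GRCm38) was at 2949, 4925, 3848 and 3239 CPM at 4 weeks and at 1243, 1822, 1700 and 2259 CPM at 12 weeks. It fell by 1.09 (SE 0.15, edgeR adjusted p = 9.39e-06) and was called in all 8 fits. Ctsa, which protects other lysosomal enzymes, fell from 1607 ± 267 to 664 ± 135 CPM, the aminopeptidase gene Ctsh from 1057 ± 152 to 610 ± 54 CPM, and Psap, the precursor of the saposins, from 8056 ± 1228 to 4570 ± 848 CPM. Granulin (Grn) fell from 1552 ± 436 to 796 ± 113 CPM. With the offset and abundant-gene scaling the log2 fold changes of Psap and Grn were -0.19 and -0.26 (edgeR adjusted p = 0.119 each). Those of Ctsa and Ctsh were -0.66 (0.000111) and -0.44 (0.00624). Tfeb, a transcription factor that drives lysosomal genes, was at 76.5 ± 30.1 and 18.9 ± 7.9 CPM (log2 fold change -2.01, edgeR adjusted p = 4.75e-05). The promoter of Ctsa is shown because this gene fell and has the core of the element that Tfeb binds, TCACGTGA, which contains an E-box; 5 of 27 lysosomal genes with a window had a match (18.5%), against 1.12% of all genes, but of the 6 that fell and have a window only Ctsa had one. The window is chr2:164833523-164833822 on the plus strand.
Ctsa: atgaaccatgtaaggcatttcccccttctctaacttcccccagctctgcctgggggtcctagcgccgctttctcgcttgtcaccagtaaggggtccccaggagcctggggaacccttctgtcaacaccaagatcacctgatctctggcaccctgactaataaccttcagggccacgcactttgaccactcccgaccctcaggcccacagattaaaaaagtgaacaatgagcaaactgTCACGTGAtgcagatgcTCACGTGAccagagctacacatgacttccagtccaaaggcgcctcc

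Genes of lipid handling and scavenging fell in a few members. Of 25 genes tested, 6 were lower and 2 higher in the fit of 26 libraries and 4 fell in both, where 10.3% of all genes of at least 50 CPM did. Scaled on abundant genes, 6 were lower and 2 higher, and 3 and 3 with the offset, with 2 lower in both fits either way. The scavenger receptor gene Stab1 was at 1457, 1778, 1171 and 1221 CPM at 4 weeks and at 300, 477, 471 and 571 CPM at 12 weeks. It fell by 1.63 (SE 0.19, edgeR adjusted p = 4.64e-07) and was called in all 8 fits. Apoe, the lipid carrier, fell from 14920 ± 3626 to 8146 ± 843 CPM (log2 fold change -0.87), but its estimate was -0.05 (edgeR adjusted p = 0.844) with the offset and the abundant-gene scaling, and above 0 when the 8 libraries were fitted alone that way. Mmp12, the macrophage elastase, was at 872 ± 83 and 855 ± 185 CPM (log2 fold change -0.03, edgeR adjusted p = 0.938).

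Among cytokines and chemokines, 7 of 28 genes tested were lower and 4 higher in the fit of 26 libraries, and 4 fell in both. With the abundant-gene scaling 4 were lower and 5 higher, and with the offset 5 were lower and 3 higher, with 2 lower in both fits either way. Il1a, an alarm cytokine held in the cell until released, was at 620, 774, 443 and 689 CPM at 4 weeks and at 173, 138, 225 and 91.1 CPM at 12 weeks. Its groups did not overlap, and it fell by 2.01 (SE 0.35, edgeR adjusted p = 0.000188) and was called in all 8 fits. Il1b, its secreted relative, was at 773 ± 131 and 742 ± 163 CPM (log2 fold change -0.06, edgeR adjusted p = 0.884). The chemokine gene Ccl3 was at 643, 803, 817 and 822 CPM at 4 weeks and at 348, 331, 413 and 174 CPM at 12 weeks, and fell by 1.29 (SE 0.29, edgeR adjusted p = 0.00278), also in all 8 fits. Tnf was at 511 ± 163 and 224 ± 67 CPM (log2 fold change -1.19, edgeR adjusted p = 0.0113; 0.0672 with the abundant-gene scaling). The chemokine gene Cxcl16 fell from 2909 ± 147 to 1830 ± 222 CPM. Of 28 genes of NF-kappaB and Toll-like receptor signalling, 7 were lower and 2 higher in the fit of 26 libraries and 2 fell in both, and on the abundant-gene scaling 5 were lower and 2 higher, and 1 and 2 with the offset. Cd14, the lipopolysaccharide co-receptor, fell from 296 ± 41 to 107 ± 32 CPM (log2 fold change -1.47). The promoter of Il1a is shown because it was called in all 8 fits and has the AP-1 motif TGANTCA, found in 4 of 20 cytokine genes with a window (20%) and 8.97% of all genes. The window is chr2:129309923-129310222 on the minus strand.
Il1a: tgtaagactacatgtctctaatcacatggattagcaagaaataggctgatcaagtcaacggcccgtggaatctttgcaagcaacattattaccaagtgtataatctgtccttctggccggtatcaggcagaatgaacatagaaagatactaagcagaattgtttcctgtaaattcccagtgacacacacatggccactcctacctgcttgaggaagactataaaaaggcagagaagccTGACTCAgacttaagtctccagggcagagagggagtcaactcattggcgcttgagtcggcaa

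Immediate early and stress genes, which respond within minutes and can be set by tissue dispersal, split. Of 30 tested, 7 were lower and 1 higher in the fit of 26 libraries, and 5 fell and 1 rose in both. On the abundant-gene scaling the balance turned, to 4 lower and 6 higher, and to 2 lower and 5 higher with the offset, with 2 higher in both fits either way. All genes likewise had more higher than lower calls there (2871 and 943, and 2407 and 697 with the offset). Zfp36, which encodes tristetraprolin, a protein that destabilises cytokine mRNA, was at 8054, 8148, 7543 and 9962 CPM at 4 weeks and at 4193, 3966, 4375 and 2045 CPM at 12 weeks. It fell by 1.21 (SE 0.20, edgeR adjusted p = 0.000123), and its relative Zfp36l1 fell from 440 ± 120 to 188 ± 39 CPM. With the offset and abundant-gene scaling the log2 fold change of Zfp36 was -0.60 (edgeR adjusted p = 0.0807) and that of Zfp36l1 -0.92 (0.00141). In that setting Jun was at -0.30 (0.307) and Ier2 at -0.76 (0.0745). Atf3 was at 4610 ± 1472 and 1947 ± 591 CPM (log2 fold change -1.24, edgeR adjusted p = 0.0299; 0.107 with the abundant-gene scaling), Jun at 1855 ± 511 and 934 ± 223 CPM and Ier2 at 268 ± 112 and 84.9 ± 36.6 CPM. Fos (1643 ± 492 and 1538 ± 711 CPM; edgeR adjusted p = 0.860) and Egr1 (9017 ± 2364 and 6303 ± 3051 CPM; 0.353) did not pass the test. Replicate 4 at 12 weeks was the lowest of its group in each of Zfp36, Zfp36l1, Atf3, Jun, Ier2, Fos and Egr1. Hsph1, a heat shock chaperone named after its values were seen, was at 621, 767, 306 and 637 CPM at 4 weeks and at 1252, 1259, 1148 and 833 CPM at 12 weeks (log2 fold change 0.95, SE 0.31, edgeR adjusted p = 0.0342), a call lost in 4 of the 8 fits of 26 libraries that left out 1. The chaperone partner gene Dnaja1, chosen after its values were seen, rose from 159, 136, 110 and 135 CPM to 433, 676, 490 and 297 CPM (log2 fold change 1.81, SE 0.23, edgeR adjusted p = 2.22e-06), in all 8 fits. Hspa1a was at 558 ± 129 and 1101 ± 254 CPM (edgeR adjusted p = 0.106; 0.0213 in the 8 libraries alone). The promoters of Zfp36 and Hsph1 are shown because these genes of 1 list moved in opposite directions and carry different elements, a CArG box in Zfp36 (found in 2 of 25 genes of the list with a window, 8%, and in 1.81% of all genes) and the heat shock core TTCNNGAA in Hsph1 (4 of 25, 16%, and 9.6%). The windows are chr7:28379179-28379478 and chr5:149636287-149636586, both on the minus strand.
Zfp36: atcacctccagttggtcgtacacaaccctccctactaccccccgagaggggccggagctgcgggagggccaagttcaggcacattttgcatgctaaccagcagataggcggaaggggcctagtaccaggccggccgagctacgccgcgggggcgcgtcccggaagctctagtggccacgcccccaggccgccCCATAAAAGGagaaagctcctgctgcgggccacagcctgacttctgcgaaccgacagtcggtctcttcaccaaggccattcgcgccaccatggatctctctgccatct
Hsph1: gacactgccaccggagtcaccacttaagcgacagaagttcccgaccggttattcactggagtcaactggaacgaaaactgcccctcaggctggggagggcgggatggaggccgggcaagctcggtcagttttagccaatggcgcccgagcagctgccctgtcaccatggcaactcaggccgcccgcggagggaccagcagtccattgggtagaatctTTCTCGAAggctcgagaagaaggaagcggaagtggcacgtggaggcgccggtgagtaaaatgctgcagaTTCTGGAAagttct

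Growth factor, matrix and nucleotide receptor genes included several of the clearest falls. Of 29 growth factor and matrix genes tested, 6 were lower and 4 higher in the fit of 26 libraries, and 3 fell and 1 rose in both. Scaled on abundant genes, 3 were lower and 5 higher, and 3 and 4 with the offset. Tgfb1 was at 945, 945, 876 and 841 CPM at 4 weeks and at 284, 398, 299 and 389 CPM at 12 weeks. It fell by 1.40 (SE 0.12, edgeR adjusted p = 3.97e-09). Its type I receptor gene Tgfbr1 moved the other way, from 835, 950, 1109 and 773 CPM to 1317, 1773, 1688 and 1602 CPM, a rise of 0.80 on the log2 scale (SE 0.12, edgeR adjusted p = 2.71e-05; 0.305 in the 8 libraries alone with the GC and length offset). Smad7, the inhibitor that the pathway induces, was at 133 ± 42 and 264 ± 73 CPM (edgeR adjusted p = 0.0079; 0.0788 in the 8 libraries alone). Over the 21 TGF-beta signalling genes tested, 2 were lower and 4 higher in the fit of 26 libraries, with 1 of each in both fits; on the abundant-gene scaling 2 were lower and 5 higher, and 1 and 6 with the offset. Of the 20 purinergic and nucleotide receptor genes tested, 3 were lower and 2 higher in the fit of 26 libraries, and on the abundant-gene scaling 2 were lower and 4 higher, and 1 and 2 with the offset. Ccn1, a matrix protein that binds integrins (chromosome 3, 145646976 to 145649981), was at 560, 1071, 427 and 1109 CPM at 4 weeks and at 122, 110, 142 and 46.5 CPM at 12 weeks, and fell by 2.91 (SE 0.54, edgeR adjusted p = 0.00077). Osm, a cytokine of the interleukin 6 family, was at 142 ± 96 and 41.2 ± 11.3 CPM, with 1 of the 4-week libraries at 285 CPM. Plau, the urokinase gene, fell from 586 ± 136 to 254 ± 37 CPM. P2ry6, a receptor for extracellular UDP, was at 710, 875, 912 and 661 CPM at 4 weeks and at 198, 266, 253 and 307 CPM at 12 weeks, and fell by 1.62 (SE 0.14, edgeR adjusted p = 3.83e-09); it was the 1 gene of its list that fell in both fits. Tgfb1, Ccn1 and P2ry6 are among the 44 genes called in all 8 fits.

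Few genes of proliferation and metabolism were called in both fits. Of 34 cell cycle genes tested, 7 were lower and 1 higher in the fit of 26 libraries and 2 fell in both. Their median log2 fold change was -1.12, with 28 of the 34 below 0. With the abundant-gene scaling 5 were lower and 2 higher, and 6 and 1 with the offset, with none in both fits. The medians were then -0.82 and -0.73. On the main scaling the median was -0.10 without replicate 2 at 4 weeks, and -1.27 to -0.775 without any other single library. Pcna, the replication clamp, was at 143, 276, 119 and 87.1 CPM at 4 weeks and at 35.7, 62.5, 66.6 and 51.2 CPM at 12 weeks (log2 fold change -1.53, SE 0.27, edgeR adjusted p = 0.000176), and the helicase subunit gene Mcm2 fell from 86.2 ± 63.7 to 18.5 ± 8.5 CPM. Mki67, the usual marker of cycling cells, was at 227 ± 123 and 101 ± 33 CPM (log2 fold change -1.17, edgeR adjusted p = 0.00399; 0.0898 in the 8 libraries alone). Of 20 glycolysis genes, 4 were lower and 2 higher in the fit of 26 libraries and 2 fell in both, and on the abundant-gene scaling 4 were lower and 4 higher, and 2 and 4 with the offset. Gpi1, the enzyme after hexokinase, fell from 483 ± 21 to 169 ± 30 CPM (log2 fold change -1.52) in all 8 fits. The mitochondrial malate dehydrogenase gene Mdh2 fell from 198 ± 110 to 38.5 ± 22.7 CPM (log2 fold change -2.36). Of 33 oxidative phosphorylation genes, 8 were lower and 2 higher in the fit of 26 libraries, and of 24 cholesterol synthesis genes 4 were lower and 4 higher. On the abundant-gene scaling, without and with the offset, the first list had 2 lower and 3 higher and the second 1 lower and 4 higher. No gene of either list was called in both fits by edgeR, and 3 of each had an unadjusted p under 0.05 in the 8 libraries alone, as had 1825 of all 12353 genes. Of 20 unfolded protein response genes, 6 were lower and 2 higher in the fit of 26 libraries and 1 fell in both, and on the abundant-gene scaling 4 were lower and 2 higher, and 2 and 2 with the offset. Of 19 genes of perivascular and alternatively activated macrophages, 2 were lower and 4 higher in the fit of 26 libraries, and on the abundant-gene scaling none was lower and 5 higher, and 2 and 5 with the offset. None was called in both fits (2 had an unadjusted p under 0.05 in the 8 libraries alone, by edgeR).

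**Figure D4:**
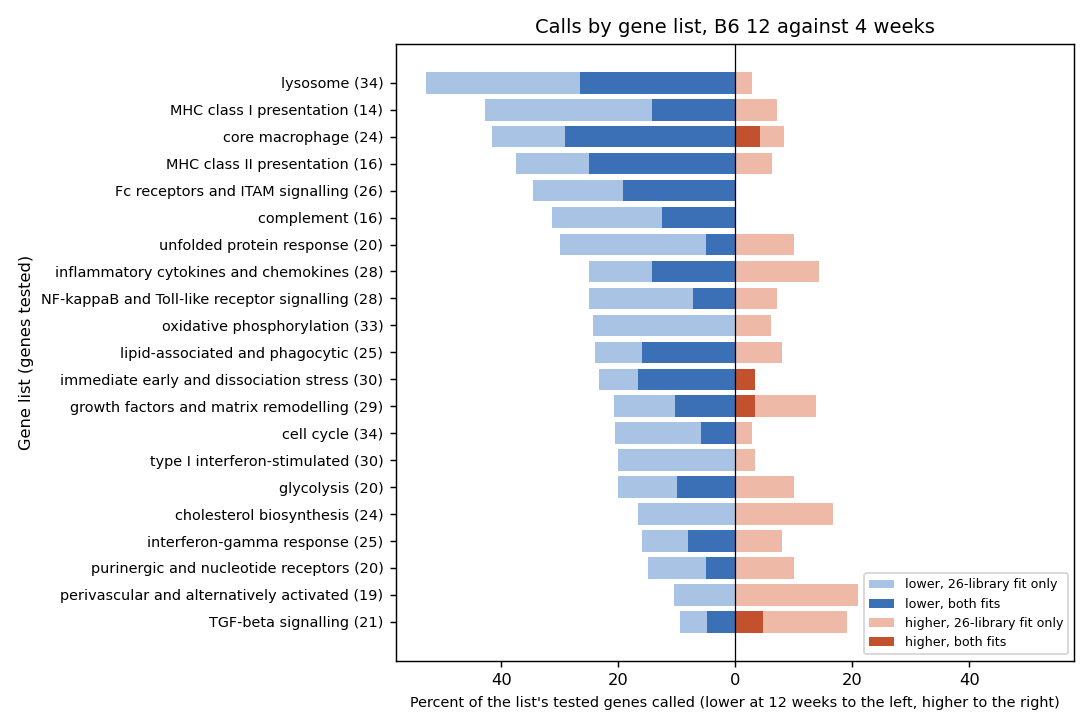
On the main scaling, share of each list's tested genes (percent, number tested in parentheses) called lower at 12 weeks, drawn to the left, or higher, drawn to the right; pale bars are calls of the fit of 26 libraries only and dark bars calls of both fits. Lysosome, with 18 of 34 lower, is at the top, and the lists with a dark bar to the right (core macrophage, immediate early, growth factors, TGF-beta) have 1 such gene each. On the abundant-gene scaling 11 of the 34 lysosome genes were lower. The type I interferon and immediate early lists then had more higher than lower calls, as had all genes (2871 and 943).

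The largest changes that met the naming rule were mostly in genes near absence at 1 of the ages. Klf9, a Krüppel-like factor induced by glucocorticoid and thyroid hormone (chromosome 19, 23141226 to 23168134), was at 0, 0.89, 0.11 and 0.10 CPM at 4 weeks and at 29.1, 20.5, 21.5 and 8.06 CPM at 12 weeks. It rose by 6.15 on the log2 scale (SE 0.80, edgeR adjusted p = 2.83e-06) and was called in all 8 fits. Wfdc17, a secreted protein of macrophages with a whey acidic protein fold, rose from 8.47, 1.27, 21.1 and 10.8 CPM to 72.5, 87.1, 86.5 and 74.0 CPM (log2 fold change 2.94, SE 0.52, edgeR adjusted p = 0.000203), also in all 8 fits. Tmem106b, a lysosomal membrane protein, rose from 10.2 ± 5.9 to 58.02 ± 6.77 CPM. Lrrn3, a leucine-rich repeat protein, had no count in the 4 libraries at 4 weeks and was at 5.88 ± 3.11 CPM at 12 weeks, at least 71.3-fold higher when 3 counts over the group are taken as the floor; Gas8, part of the motor regulatory complex of cilia, was at least 62.4-fold higher by the same floor. Smim6 had 1 count at 4 weeks and 237 at 12 weeks, a ratio of 290 with a 95% counting interval of 51.5 to 11500. The 2 floors and the intervals of Smim6 and Hba-x account for counting error only, in amplified RNA whose reads are not independent molecules. In the smaller fit, the calls of Lrrn3 and Gas8 were lost whichever of the 8 libraries was left out. Leaving out 1 library moved the log2 fold change of Smim6 in the fit of 26 libraries between 6.98 and 9.57. On the other side, Hba-x, the embryonic zeta globin, was at 37.7, 25.5, 31.6 and 24.7 CPM at 4 weeks and had 2 counts in all at 12 weeks, a ratio of 427 with a 95% counting interval of 118 to 3530, and was called in all 8 fits. Pdlim2, a nuclear protein that limits NF-kappaB, fell from 106 ± 35 to 17.5 ± 6.3 CPM (log2 fold change -2.59).

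Among abundant genes, the rises were few. Actb, the cytoplasmic beta actin, was at 5738, 5620, 5851 and 4786 CPM at 4 weeks and at 8951, 11040, 9811 and 10070 CPM at 12 weeks, a rise of 0.86 (SE 0.16, edgeR adjusted p = 0.000395). Malat1, a long non-coding RNA kept in the nucleus, rose from 1156, 1271, 1629 and 1527 CPM to 2950, 3582, 3281 and 3041 CPM (log2 fold change 1.20, SE 0.12, edgeR adjusted p = 2.23e-08). Gnaq, a G protein alpha subunit, rose from 322 ± 107 to 741 ± 48 CPM and Sod1, the cytosolic superoxide dismutase, from 23.5 ± 17.9 to 109 ± 16 CPM. Each of these 4 genes was called in all 8 fits, and Malat1, Gnaq and Sod1 were named after their values were seen.

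Summed levels of some lists of markers of other cells were lower at 12 weeks, though not all of their members were. The summed level of 17 islet endocrine markers was 1100 to 1590 CPM at 4 weeks and 286 to 639 CPM at 12 weeks, with none of the 17 at 0 throughout a group. In the fit of 26 libraries 4 of the 17 were lower and 1 higher, and 2 fell in both fits. Their log2 fold changes ran from -3.37 to 4.92, with 11 below 0. Ins1 was at 274 ± 87 and 99.0 ± 35.4 CPM (edgeR adjusted p = 0.0349), Ins2 at 720 ± 200 and 321 ± 90 CPM (0.0808) and Iapp at 74.5 ± 26.8 and 19.0 ± 5.7 CPM (0.00104). The 12 B and plasma cell markers summed to 732 to 1070 CPM at 4 weeks and 306 to 447 CPM at 12 weeks, most of it Ighm, which fell from 792 ± 143 to 319 ± 62 CPM. Of the 8 tested, 2 were lower and none higher in the fit of 26 libraries and 1 fell in both. Their median log2 fold change was 0.12, with 4 below 0. The 10 duct markers summed to 27.7 to 39.6 and 6.95 to 18.8 CPM, but none of the 9 tested was called by edgeR, and 5 had a log2 fold change below 0. For the other 11 lists (acinar, T cell, conventional and plasmacytoid dendritic cell, natural killer cell, monocyte, neutrophil, mast cell and eosinophil, erythroid, endothelial and stromal) the ranges of the 2 ages overlapped. At 4 weeks, 7 of 12 neutrophil and 4 of 12 mast cell and eosinophil markers had no count in any library. At 12 weeks every marker of both lists had a count. The median log2 fold change was 4.15 for neutrophil markers, with none of the 7 tested called. It was 2.66 for stromal, 1.88 for natural killer cell, 1.81 for mast cell and -2.49 for erythroid markers, and -0.64 to 0.89 for the rest. With a covariate for islet endocrine and acinar markers the fit of 26 libraries called 3544 genes, which included all 390 genes called in both fits. The covariate was the mean log level of these markers, with equal weight to the acinar ones, and was not fitted in the 8 libraries alone. It therefore cannot set the part of the endocrine markers apart. The part of the islet endocrine markers by themselves, and that of the B cell and duct markers, was not tested.

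The other groups place the 2 ages. For 314 of the 320 genes that fell, the B6 mean at 2 weeks was below that at 4 weeks, as it was for 2250 of the 2864 genes of at least 50 CPM, and for 290 of the 320 the B6 4-week mean was the highest of the 7 group means (1425 of the 2864). The calls use the 4-week libraries, so these counts describe them and test nothing. Cd74 was at 8464 ± 2169 CPM (SD, n = 3) at 2 weeks, below both later ages, and Spi1 at 285 ± 12 CPM, between them. Il1a differed from these, at 578 ± 222 CPM at 2 weeks and 631 ± 140 CPM at 4 weeks.

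In the fit of 26 libraries, fewer genes were called between 4 and 12 weeks in NOD mice than in B6 mice. Of all genes tested, 320 were called between the NOD ages in either direction (1.62%), with 3 libraries at 12 weeks, and the difference between the strains' changes was called for 874 (4.44%). The interaction was called for 190 of the 320 genes that fell in B6 and for 49 of the 70 that rose; these genes were chosen for their B6 change, so their share is not to be read against the 4.44%. Of the 320, 38 were also called lower in NOD and 10 were called higher. Cd74 rose in NOD from 7665 ± 160 (n = 4) to 16130 ± 2066 CPM (n = 3; log2 fold change 1.07, edgeR adjusted p = 1.74e-05), and the difference between the strains' changes, the interaction, was 2.13 (edgeR adjusted p = 5.12e-08). At 12 weeks the NOD mean was close to the 14730 ± 1476 CPM of B6. B2m was at 3560 ± 703 and 6864 ± 1569 CPM in NOD (interaction 1.84, edgeR adjusted p = 5.22e-06), and Spi1 at 244 ± 31 and 259 ± 18 CPM (interaction 1.80, edgeR adjusted p = 1.14e-05). Other genes fell in both strains, with an interaction that did not pass the test. Csf1r fell in NOD by 0.81 (edgeR adjusted p = 6.24e-05) with an interaction of -0.01 (0.984), Il1a by 2.20 (0.00091) with -0.19 (0.872), Apoe by 0.99 (0.000219) with -0.11 (0.811) and Plau by 1.29 (0.00829) with -0.08 (0.929). Mmp12 fell by 3.04 in NOD and not in B6 (interaction -3.01, edgeR adjusted p = 2.13e-07).

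**Figure D5:**
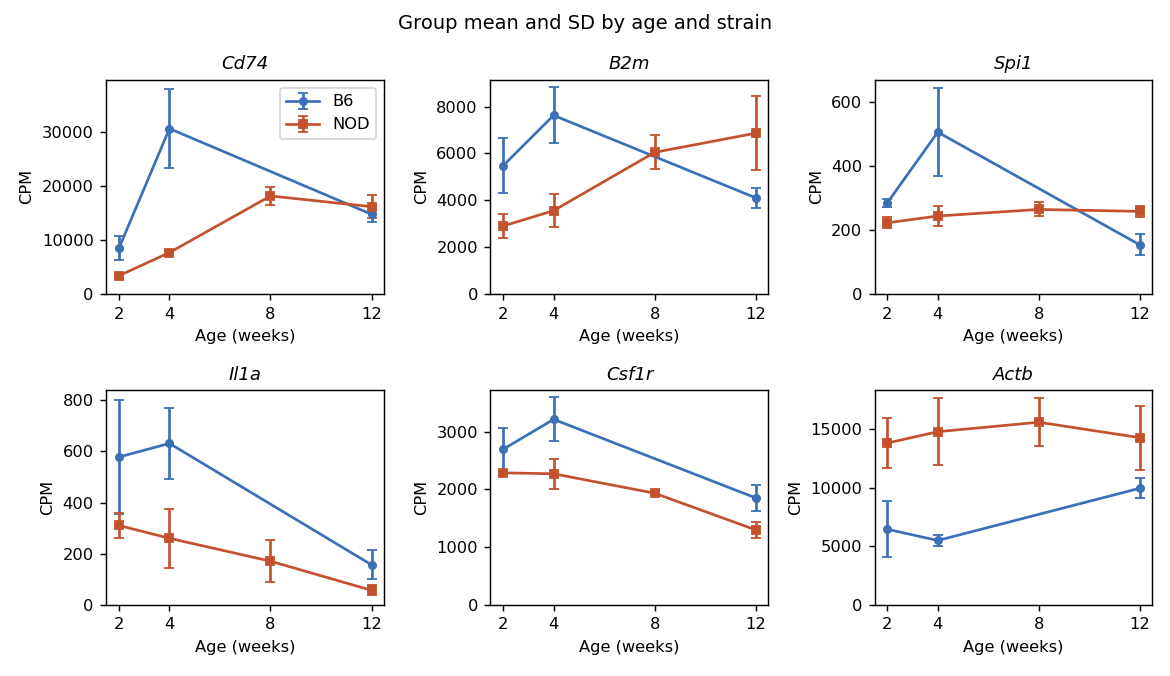
Group means with SD in CPM by age in weeks for 6 genes, B6 as blue circles (n = 3 at 2 weeks, 4 at 4 and 12) and NOD as orange squares (n = 4, and 3 at 12 weeks). Cd74, B2m and Spi1 peak at 4 weeks in B6, Il1a and Csf1r decline in both strains between 4 and 12 weeks, and Actb rises in B6 only between 4 and 12 weeks (interaction -0.91).

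Some of the calls were lost when 1 library was left out. Without replicate 1, 2, 3 or 4 of the 12-week group, 126, 162, 134 and 237 genes were called in both fits, where leaving out a 4-week library gave 327 to 373. Of the 74 genes named here that were called in both fits, 44 kept both calls whichever of the 8 libraries was left out, in 16 fits. Among them are Cd74, Lgmn, B2m, Spi1, Csf1r, Cd68, Fcer1g, Fcgr3, C1qc, Ctsa, Ctsb, Psap, Stab1, Apoe, Il1a, Ccl3, Cd14, Ifngr2, Tgfb1, Tgfbr1, Ccn1, P2ry6, Zfp36, Gpi1, Actb, Malat1 and Dnaja1. In the fit of 26 libraries, leaving out 1 library ended the call of Atf3 in 3 of 8 cases, of Hsph1 in 4 and of Ins1 in 5. In the smaller fit, calls that were lost in 4 or more of 8 cases were those of Mertk, H2-Ab1, Sirpa, Fcgr1, Tfeb, Tnf, Jun, Ier2, Hsph1, Osm, Pcna, Mcm2, Iapp, Hspa1a and Ins2 (both called in that fit only), Klf9, Wfdc17, Tmem106b, Lrrn3, Gas8 and Smim6. The labels do not say whether the counting used strand. Reads of Cd74, Csf1r, H2-DMa, Ctsa, Ctsb, Grn, Stab1, Il1a, Il1b, Cxcl16, Zfp36, Zfp36l1, Jun, Hspa1a, Dnaja1, Gpi1, Mmp12, Malat1 and Gm42418 may include those of genes whose exons overlap them.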

How the data were processed

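RNA from sorted islet macrophages was amplified and sequenced, and the authors deposited raw counts per gene in 1 table. The tools named in the submitters' processing notes are STAR, HTSeq and DESeq2, on GRCm38 (mm10). Their versions are not given in the sources used here. The table held 41092 lines, of which 534 repeated 286 gene IDs and were dropped, leaving 40558 genes, 40254 with a symbol. Groups came from the labels. In R 4.3.3, edgeR 4.0.16 fitted 1 mean per group (TMM, filterByExpr, robust quasi-likelihood, Benjamini-Hochberg) to all 26 libraries and again to the 8 libraries alone. CPM are counts per 1000000 of the TMM-scaled library. Alternatives used DESeq2 1.42.0, limma 3.58.1 (voom with sample weights), other scalings and filters, thinning, a covariate, a replicate block and, chosen after seeing the data, scaling on genes of at least 50 CPM and an offset for GC content and transcript length (spline with 4 degrees of freedom; 36 tested genes had no GC value). The scripts were tested on simulated data. Gene positions and overlaps are from GENCODE M21; 380 of 504 list genes had a RefSeq promoter window.

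The genes named were the largest changes called in both fits (up to 15 per direction, mean of at least 5 CPM in the higher group, no overlap), the 10 most abundant genes called in both, up to 4 members per list by smallest adjusted p, and the sort and marker checks, with some left out for room. Named after their values were seen were H2-Aa, H2-Eb1, Ctss, H2-K1, Mertk, Sirpa, C1qa, Ctsh, Tfeb, Tnf, Il1b, Mmp12, Plau, Egr1, Fos, Hsph1, Hspa1a, Dnaja1, Malat1, Gnaq, Sod1 and the genes under other observations. The comparison and the gene lists were chosen with earlier results of these data known.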

Additional observations from a re-analysis of the deposited data

Results flagged for a closer look

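In 15 of 180 groups of 4 B6 libraries (90 named genes at 2 ages), the highest or lowest library lay so far from the others that its gap to the nearest, as a share of the range, passed Dixon's critical value of 0.829; chance flags about 1 in 20 groups. At 4 weeks these were replicate 1 for Ccl3 (0.893), Ier2 (0.837), Osm (0.965) and Smim6 (1), replicate 2 for Mcm2 (0.928), Il2ra (0.929) and Klf9 (0.872), and replicate 3 for Sod1 (0.936) and Fcgr3 (0.881). At 12 weeks they were replicate 4 for Fos (0.867), Atf3 (0.877) and Hspa1a (0.895), replicate 2 for H2-DMa (0.875), and replicate 1 for Ctss (0.854) and Smim6 (0.9).

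The change from 4 to 12 weeks differed between the strains for 56 of the 90 named genes by edgeR's interaction test at an adjusted p under 0.05, where 4.44% of all genes passed; most of the 90 were chosen for their B6 change, so the shares are not to be compared. The difference, given in parentheses as the NOD log2 change minus the B6 log2 change, was above 0 for 44 genes and below 0 for 12. Genes chosen for a fall in B6 lean to a difference above 0, and those chosen for a rise to one below 0. The split therefore describes the choice of genes and tests nothing. All values are on the main scaling, and the strain difference was not fitted with the abundant-gene scaling. In antigen presentation these were Cd74 (2.13), H2-Ab1 (2.02), H2-Aa (1.55), H2-Eb1 (2.35), H2-DMa (2.03), Lgmn (0.97), B2m (1.84), H2-D1 (1.94) and H2-K1 (1.72). Among receptors, identity genes and signalling chains they were Spi1 (1.80), Cd68 (0.75), Sirpa (1.11), Mertk (-2.48), Fcer1g (1.44), Fcgr3 (1.02), Fcgr1 (1.38), C1qc (1.57), Itgax (0.96), Ifngr2 (1.37), P2ry6 (0.99) and Gnaq (-1.71). In lysosome and lipid genes they were Psap (1.19), Ctsa (1.04), Ctsb (1.29), Ctsh (1.03), Grn (1.55), Tfeb (1.68), Man2b1 (0.63) and Tmem106b (-2.50). In cytokine, growth factor, matrix and immediate early genes they were Cxcl16 (0.69), Osm (2.07), Tgfb1 (0.80), Tgfbr1 (-1.39), Mmp12 (-3.00), Zfp36 (1.44) and Ier2 (1.51). In genes of metabolism, the cytoskeleton and translation they were Gpi1 (1.14), Mdh2 (2.44), Sod1 (-1.76), Actb (-0.91), Arpc2 (1.11), Cap1 (1.00), Rhog (2.20), Rps3 (1.54), Rps14 (1.38), Rplp0 (1.60), Eif3h (1.46) and Rack1 (0.96). In the remaining genes they were Pdlim2 (2.63), Klf9 (-5.75), Lrrn3 (-9.24), Gas8 (-9.18), Hba-x (8.13), Smim6 (-8.18), Malat1 (-1.22) and Gm42418 (0.88).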

How the results depend on the processing

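The genes called in the fit of 26 libraries (3720) were 392 in the 8 libraries alone, 609 with the 11 B6 libraries, 410 with limma-voom and sample weights and 669 against a minimum log2 fold change of 1. DESeq2 (5144), RLE scaling (3756), thinned counts (2941), upper-quartile scaling (3740), a stricter filter (2501), no filter (3411), the islet marker covariate (3544), and, chosen after seeing the data, the GC and length offset (3077), the abundant-gene scaling (3814), both (3104) and leaving out Gm42418 and Mir6236 (3704) stayed within 1.5 times. Leaving out 1 library gave 2617 to 4647. The 392 genes of the 8 libraries alone became 1382 with DESeq2, 610 without a filter, 168 with upper-quartile scaling, 166 with the offset, 180 with the abundant-gene scaling and 63 with both, and 126 to 378 without 1 library. The 390 genes called in both fits became 1375 with DESeq2, 168 with upper-quartile scaling, 165 with the offset, 179 with the abundant-gene scaling and 63 with both, and 126 to 373 without 1 library, the lowest counts all coming from fits without a 12-week library. The cause of these moves was not tested. With the replicate number as a block the 8 libraries gave 361 genes, and 185 with the block and the offset. Deviations of same-numbered libraries from their group means had r = 0.0662, 0.0151, 0.0166 and -0.0355, and those of other pairs -0.117 to 0.0637. The labels do not say whether same-numbered libraries share more than a number. The strain difference (874) was 940 with RLE scaling and 677 with the offset, and was not fitted with the abundant-gene scaling. Of 3314 alternative values of the 79 named genes called in the fit of 26 libraries, 2813 kept direction and call and 497 kept the direction only. Counting only pairs of values of which the main or the alternative one was called, signs turned, with the offset and abundant-gene scaling, for H2-Ab1 (0.0771, and 0.145 in the 8 libraries alone), H2-K1 (0.47), and in the 8 libraries alone for Apoe (0.0077) and Gm42418 (0.0347), and with the offset alone for Ptprc (-0.41). Values called in neither also turned, with the offset and abundant-gene scaling, for H2-Aa (0.105), Egr1 (0.297), Fos (0.383) and Ptprc (-0.0996), among others. Depth limits genes near the floor of 3 counts, which is 0.264 to 0.605 CPM in these libraries.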

Other observations

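Several other genes among the 28 that were lower in all 8 fits are described here. They were chosen after their values were seen, and no list of their functions was tested. Rps3, a protein of the small ribosomal subunit, was at 1462, 2839, 2394 and 2111 CPM at 4 weeks and at 604, 695, 871 and 779 CPM at 12 weeks (log2 fold change -1.58, SE 0.17, edgeR adjusted p = 1.43e-07). Rps14 fell from 392 ± 63 to 109 ± 8 CPM (SD, n = 4 each), the large subunit stalk gene Rplp0 from 280 ± 94 to 68.0 ± 14.9 CPM, the initiation factor gene Eif3h from 440 ± 17 to 144 ± 6 CPM and Rack1, a scaffold on the ribosome, from 976 ± 167 to 421 ± 69 CPM. The family did not move as one. Of 69 ribosomal protein genes tested in both fits, 10 fell and 2 rose, 4 were lower and 1 higher in both fits also with the GC and length offset, and their median log2 fold change was -0.11. Ribosomal protein genes have near-identical processed copies, which the counting may have split, so single members are uncertain.

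Rhog, a small GTPase of membrane ruffling, was at 682, 801, 633 and 563 CPM at 4 weeks and at 136, 168, 150 and 164 CPM at 12 weeks (log2 fold change -2.12, SE 0.15, edgeR adjusted p = 1.56e-10). Arpc2, a subunit of the complex that nucleates branched actin, fell from 1137 ± 144 to 520 ± 98 CPM and Cap1, which recycles actin monomers, from 775 ± 64 to 307 ± 70 CPM, while Actb rose. Il2ra, the alpha chain of the interleukin 2 receptor, was at 942 ± 129 CPM at 4 weeks, 407 ± 31 CPM at 12 weeks and 129 ± 71 CPM (n = 3) in B6 at 2 weeks, against 69.2 ± 16.7 CPM in NOD at 4 weeks. Man2b1, a lysosomal mannosidase outside the lysosome list, fell from 1547 ± 144 to 609 ± 93 CPM. Each of these genes except Actb was lower in all 8 fits, and each kept its call in both fits whichever of the 8 libraries was left out.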
